A study of Coprinopsis cinerea with 10 samples.

Results

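The step from the young fruiting body to the expanded cap was examined in Coprinopsis cinerea, an ink cap mushroom that completes its fruiting cycle on agar, across all 13320 genes of the array. The samples were chosen by title: 2 arrays of the mature fruiting body and 2 of the young fruiting body, which is 4 of the 10 arrays of the series. Young fruiting bodies stood about 2 cm tall. Mature fruiting bodies stood about 4 cm tall, and their RNA came from the fully opened cap alone, so tissue and stage cannot be told apart in this comparison. Each array held RNA of 4 to 5 pooled structures, and the labels call the 2 arrays of a stage biological replicates. All groups were 1 fruiting dikaryon with 50% Okayama-7 origin, backcrossed for 5 generations and 98.44% homologous to that sequenced strain, with fruiting induced at 25 °C in alternating light and dark of 12 h each. The other 6 arrays held vegetative mycelium grown at 37 °C, fruiting initials of about 2 mm and stage 2 primordia of about 1 cm. They entered the fit that estimates the spread between replicates and are quoted as levels beside the members.

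In mushrooms of this kind the gills of the young fruiting body carry basidia, the club-shaped cells in which nuclei fuse, pass through meiosis and form spores. The stipe then elongates, the cap opens, and in ink caps it digests itself, a process in which hydrolases of the fungal cell wall such as chitinases and glucanases take part. Lectins of the galectin family, known in this species as defence proteins toxic to nematodes, are abundant in young fruiting bodies.

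Values are log2 intensities, the mean over both probe blocks of an array, and a change is the mature mean minus the young mean on that scale, with the standard error (SE) of the fit. The median intensity was 3268 to 3403 units on the 10 arrays and the random-sequence controls read 22.4 to 29.1 units. The floor for a stage was set at 4 times the control; a gene with both arrays at or below it counts as under the floor, and 1658 genes did so in both stages. Replicates differed by a root mean square of 0.1281 log2 units between the young arrays and 0.2143 between the mature arrays. The noise between probe blocks within the arrays would alone give 0.1107 and 0.1695. The replicate differences were thus 1.157 and 1.265 times that noise. Only 2 genes differed over 2-fold between the young arrays, and 54 did between the mature arrays. Positions on the single slide ran in stage order from array 1 to array 10, and position therefore cannot be told apart from stage. In these bulk samples, fewer cells of a type and less RNA per cell cannot be told apart.

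The cap differed from the young fruiting body over most of the genome. By limma with a Benjamini-Hochberg adjusted p threshold of 0.05, 5095 genes (38.3%) were higher in the cap and 5422 (40.7%) were lower. A change of at least 2-fold was also met by 1639 of them (12.3%) upward and by 1975 (14.8%) downward. These are the background shares for every count below. The median change over all genes was 0.02, with quartiles of -0.55 and 0.50. The mature arrays both lay above both young arrays in 5983 genes (44.9%) and below them in 5907 (44.3%), so separate groups were the usual state of a gene here. The calls include 457 genes under the floor in both stages, for which no size is given. Of the 2-fold calls, 142 upward and 310 downward had the dimmer stage under the floor, where the size of the change is only a bound. With such genes at their bound, changes of at least 4 log2 units were called in 84 genes upward and 66 downward, and changes of at least 5 units in 29 and 15.

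**Figure D1:**
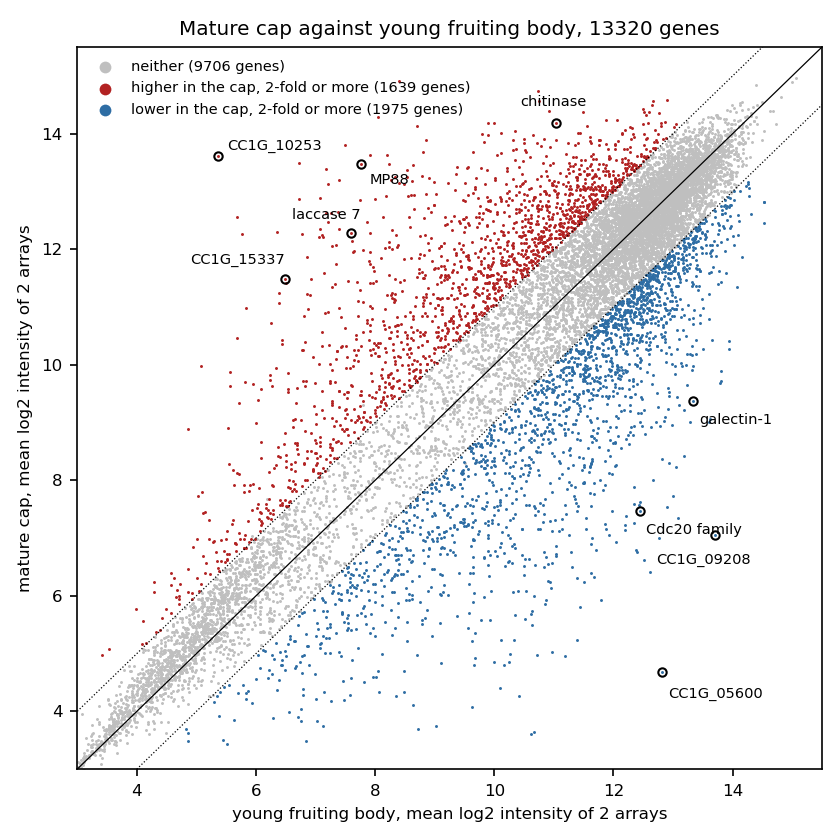
Mean log2 intensity of each of 13320 genes in the young fruiting body (x axis) and the mature cap (y axis), 2 arrays each; dotted lines mark a 2-fold difference, red and blue points are the 1639 and 1975 genes called with at least that change, and circles mark 9 genes described in the text. The circled genes reach from CC1G_10253, which is near the controls in the young fruiting body and bright in the cap, to CC1G_05600, which is the reverse.

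Defining markers were checked first. The 3 galectins that mark fruiting body tissue were measured well above the floor in both stages, and all 3 were lower in the cap. Their summed intensity was 37453 and 37718 units on the young arrays and 8011 and 7863 on the mature arrays. Of the markers of basidia in meiosis, Spo11, the helicase MER3 and Msh5 fell. The list set for vegetative mycelium held hydrophobins, cellobiohydrolases, a cellulase and laccases. It marked mycelium poorly, since only 10 of its 32 genes had their highest mean in mycelium and 14 had it in the cap. Of the 32, 15 were higher and 17 lower in the cap, with a median change of -0.30. Their summed intensity was 68211 and 68007 units on the young arrays and 83040 and 83638 on the mature arrays. Without the laccase 5 gene CC1G_00690 the sum over the other 31 was 64284 and 64405 units on the young arrays and 64310 and 63774 on the mature ones.

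Most genes of the meiosis and recombination list stood lower in the expanded cap than in the young fruiting body. The list was matched on product names. Besides genes of meiotic recombination it took in repair genes, genes named only as meiotically up-regulated and an aldehyde dehydrogenase (CC1G_03873, -1.51). Of 14 measured genes, 10 fell and 3 rose, 8 of the falls and 1 of the rises by at least 2-fold, and the median change was -1.19. Spo11, which makes the breaks that start recombination (CC1G_03320), read 11.50 and 11.60 in the young samples and 9.78 and 9.59 in the caps. Its caps lay between the young level and the mycelium, which stood at 6.23 and under the floor (change -1.86, SE 0.104, adjusted p = 2.87e-06). MER3, a helicase of crossover formation (CC1G_01117), went from 13.05 on both young arrays to 11.14 and 11.09. Its groups did not overlap, with a change of -1.94 (SE 0.0373, adjusted p = 2.43e-08). Msh5, a partner in crossover formation (CC1G_14981), changed by -0.42 (adjusted p = 0.00455), and that call was lost in 3 of the alternative settings.

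The break-repair genes RAD50 (CC1G_03010, change -1.59) and MRE11 (CC1G_10319, -1.39), whose products hold and trim DNA ends together, fell as well. So did RAD54B (CC1G_14217, -1.79), a motor protein that moves along DNA. The list was not uniform. A gene named as meiotically up-regulated (CC1G_13624) was the list's only 2-fold rise at 1.00, from 12.42 and 12.41 to 13.42 on both mature arrays.

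DNA replication genes fell together over a wider range. Of 34 measured, 27 fell and 5 rose, 15 and 2 of these by at least 2-fold, and the median was -0.89. PSF2, a subunit of the GINS complex of the replicative helicase (CC1G_01354), read 12.16 and 12.26 on the young arrays and 7.72 and 7.05 on the mature ones, which differed from each other by more than most genes did. Even the higher cap lay far below the young samples, and the change was -4.83 (SE 0.199, adjusted p = 6.51e-07). PSF1 of the same complex (CC1G_12309) fell too, with a change of -3.01. An origin binding protein (CC1G_05245) went from 12.25 and 12.28 to 8.64 and 8.59, a change of -3.64 (SE 0.0368). Subunit 4 of the origin recognition complex (CC1G_00769) changed by -2.40, and 2 subunits of replication factor C, the loader of the sliding clamp, by -2.24 (CC1G_10825) and -2.15 (CC1G_01803). The catalytic subunit of polymerase alpha (CC1G_05722), which starts new strands, changed by -1.87.

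The exceptions included paralogs of members that fell. A ribonucleotide reductase small subunit (CC1G_00201), part of the enzyme that makes DNA precursors, went from 13.42 and 13.43 to 11.48 and 11.27. A gene of the same name with the adjoining number (CC1G_00200) went the other way, from 10.49 and 10.57 to 12.19 and 12.15, a rise of 1.64 (SE 0.0799, adjusted p = 1.46e-06). An ATP dependent DNA ligase (CC1G_00680) rose by 1.93, while another DNA ligase (CC1G_07933) changed by -2.96. The mitochondrial-type gamma polymerase (CC1G_08656) rose by 0.86.

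Cell cycle genes followed: 27 of 38 fell and 5 rose, 9 of the falls and none of the rises by at least 2-fold, with a median of -0.35. A Cdc20 family gene (CC1G_09412), whose relatives activate the anaphase-promoting complex, read 12.45 and 12.44 in young fruiting bodies and 7.36 and 7.58 in caps. This was the largest fall of the list, with a change of -4.98 (SE 0.0678, adjusted p = 7.57e-09). Cdc6B, of the family that loads the helicase at origins (CC1G_03323), fell from 13.19 and 13.17 to 8.48 and 8.37 (change -4.75, SE 0.0488). Cdc45, the third part of the active helicase (CC1G_05095), fell from 11.94 and 11.92 to 8.03 and 8.20 (change -3.81, SE 0.0554). In all 3 genes the 8 arrays of the earlier stages lay above both caps. Cdt2 (CC1G_00054), which in yeasts and animals directs replication proteins to degradation, changed by -3.31, the B-type cyclin cdc13 (CC1G_05320) by -1.57 and the spindle checkpoint protein MAD2 (CC1G_10526) by -1.26. The 5 genes that rose were 4 genes named as cyclins (0.43 to 0.81) and Ccdc55 (CC1G_12016, 0.32).

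All 10 genes of cohesin, condensin and the related Smc5-6 complex, ring complexes that hold and compact chromosomes, fell, 7 of them by at least 2-fold, with a median of -1.70. The condensin subunit smc4 (CC1G_13764) went from 12.14 and 12.02 to 9.01 and 9.13, and cnd2 (CC1G_05699) from 12.81 and 12.95 to 10.13 and 9.96. Neither gene's groups overlapped (changes of -3.01 and -2.83). Among 11 histone genes, 9 fell and none rose, with a median of -0.43 and 1 fall of at least 2-fold. That gene was a histone H2A (CC1G_07640), at 13.32 on both young arrays and 10.28 and 10.04 on the mature ones (change -3.16, SE 0.0728, adjusted p = 4.89e-08). The differences in the other histone genes lay between -0.61 and 0.04. Among 43 cytoskeleton genes 32 fell and 7 rose, 11 and 1 of them by at least 2-fold, with a median of -0.38. A dynein intermediate chain (CC1G_06941, -3.58) and a kinesin (CC1G_05372, -2.07), parts of microtubule motors, led the falls together with a gene named as an actin (CC1G_13050) that ended under the floor, and an actin gene (CC1G_13048) rose by 2.12.

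**Figure D2:**
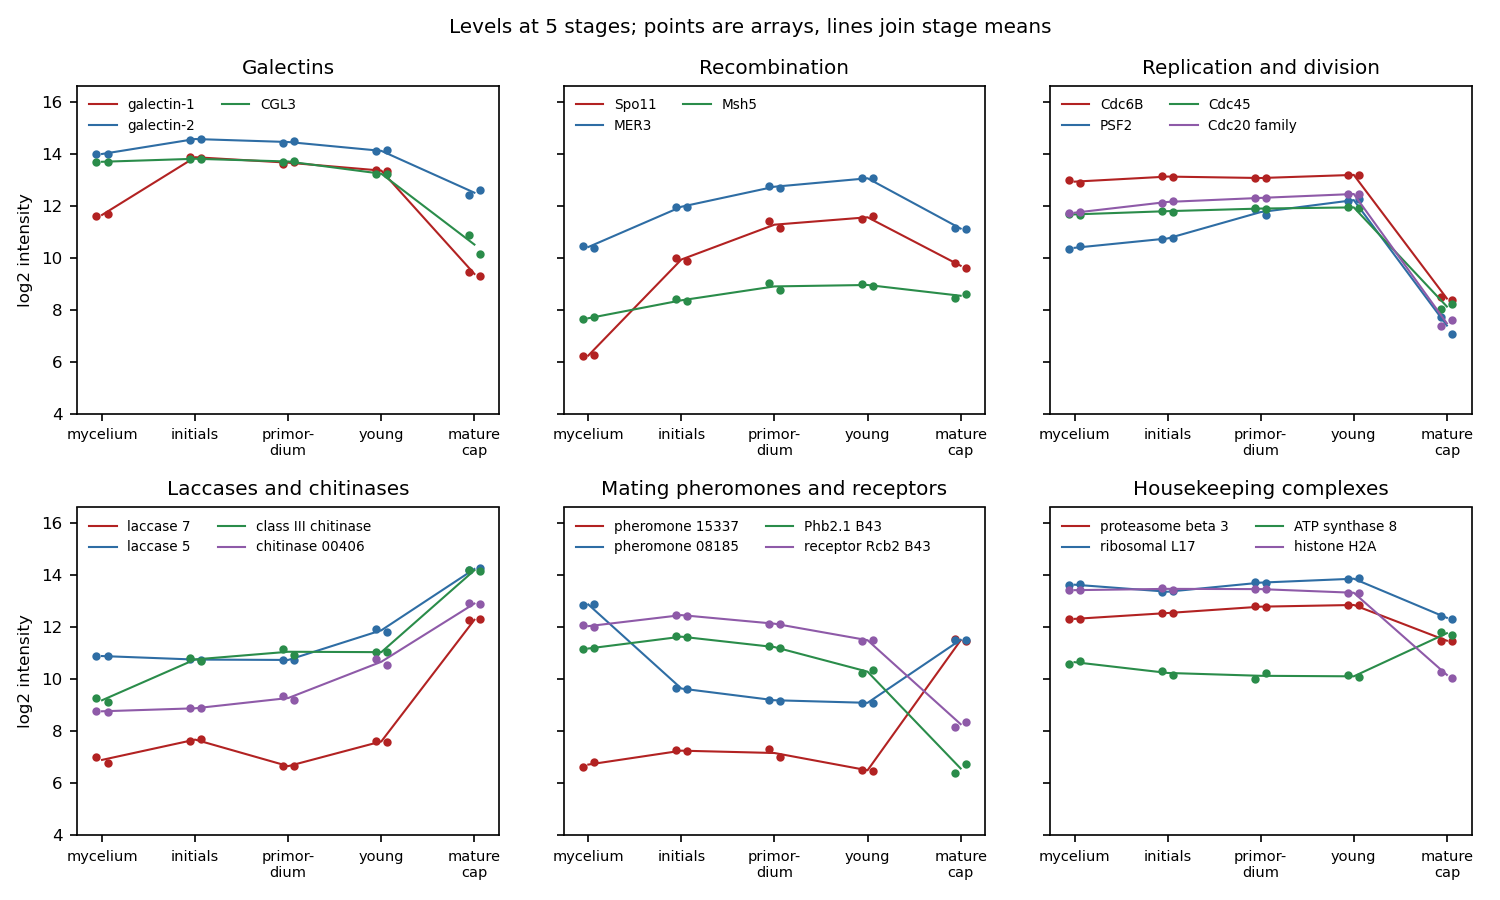
Log2 intensity of 22 genes at the 5 stages; each point is an array and lines join stage means. The 4 genes of replication and division are high at the first 4 stages and low in the cap, the 3 recombination genes climb to the young fruiting body before they drop, and the laccase and chitinase genes shown are highest in the cap.

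Other genes of DNA precursor metabolism and spore formation stood among the 12 largest falls of named genes. A dCMP deaminase (CC1G_01851), which supplies dUMP for thymidine nucleotides, read 10.70 and 10.64 on the young arrays and 3.64 and 3.63 on the mature ones. The caps were under the floor, so only a bound is known, at least 15.0-fold lower. A uracil-DNA glycosylase (CC1G_10296), which removes uracil from DNA, read 11.39 on both young arrays and 5.23 and 5.24 on the mature ones, at least 24.7-fold lower. A sirtuin (CC1G_09430), of a family of NAD-dependent deacylases, was at least 12.5-fold lower. The basidiospore development protein (CC1G_05700) had built up from a mean of 7.76 in mycelium to 10.53 in primordia. It read 10.93 and 10.98 in the young samples and 5.39 and 4.65 in the caps, at least 18.3-fold lower. The other 3 members of the spore and sporulation list were named only for a WSC domain, a name that does not refer to spores. CC1G_06187 was called higher by 0.26, and CC1G_10047 differed by 0.03 (adjusted p = 0.413). CC1G_08907 was also called higher, but under the floor in both stages, where no size is given.

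Lectins and toxins fell in 5 of 7 genes, each by at least 2-fold, and 1 rose. Galectin-1 (CC1G_05003) read 13.35 and 13.34 on the young arrays and 9.46 and 9.28 on the mature ones. The caps lay below all 8 other arrays, and the change of -3.97 (SE 0.0626, adjusted p = 1.25e-08) was a 15.7-fold fall. Galectin-2 (CC1G_05005) went from 14.09 and 14.12 to 12.41 and 12.58, a change of -1.61 (SE 0.0532, adjusted p = 2.29e-07). CGL3 (CC1G_00723), a relative that binds chitin fragments, read 13.22 and 13.23 before and 10.85 and 10.15 after, so the mature arrays differed more between themselves here (change -2.72, SE 0.195, adjusted p = 1.09e-05). A hemolysin (CC1G_02801, -1.76) and a PVL-type lectin (CC1G_03091, -1.21) also fell. A further lectin (CC1G_04692) differed by -0.08 with an adjusted p of 0.0602 and passed the threshold in 5 alternative settings. The exception was a ricin B lectin (CC1G_11246), which rose from 10.49 and 10.47 to 13.49 and 13.55 (change 3.04, SE 0.0655, adjusted p = 3.79e-08).

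Hydrolases of the fungal cell wall moved both ways. Of 46 genes, 22 were higher and 17 lower in the cap, 10 and 7 of them by at least 2-fold, with a median of 0.14. A class III chitinase (CC1G_04407) read 11.04 and 11.03 in young fruiting bodies and 14.21 and 14.16 in caps. It lay above all 8 other arrays, with a change of 3.15 (SE 0.0869, adjusted p = 1.06e-07), or 8.87-fold. Another chitinase (CC1G_00406) went from 10.77 and 10.56 to 12.92 and 12.89, a change of 2.24 (SE 0.0732). Of the 8 genes named as chitinases or endochitinases, a grouping made after the values were seen, 5 rose and 1 fell, 4 of the rises by at least 2-fold. Lysozyme genes, named for enzymes that cut amino sugar polymers, split: CC1G_03076 rose by 3.63, CC1G_03042 changed by -2.74, and CC1G_03049 ended under the floor, at least 15.3-fold lower. An alpha-1,3-glucanase (CC1G_06463) also ended under it, at least 7.06-fold lower. The list named chitin and glucan synthesis also took in mannosyltransferases and chitin deacetylases. Of its 54 members 29 were higher and 19 lower, only 4 and 5 beyond 2-fold, with a median of 0.13. Its 5 falls beyond 2-fold were all in mannosyltransferases and a chitin deacetylase. The genes named as chitin or glucan synthases changed by -0.44 to 0.37. The largest change there was in a GPI mannosyltransferase (CC1G_07396), which builds membrane anchors of wall proteins, at -3.44.

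Copper enzymes that oxidise phenols and sugars differed by family. The list of 27 held 16 higher and 11 lower genes, 11 and 7 of them beyond 2-fold, shares of 40.7% and 25.9% against the background of 12.3% and 14.8%. Of 16 laccases, multicopper oxidases of phenols, 12 rose and 4 fell. Laccase 7 (CC1G_09611) read 7.63 and 7.57 on the young arrays and 12.26 and 12.30 on the mature ones. Its level had stayed between 6.65 and 7.67 on average in mycelium, initials and primordia, and the change was 4.68 (SE 0.0795, adjusted p = 1.64e-08). A laccase 5 gene (CC1G_00690) rose from 11.94 and 11.81 to 14.19 and 14.28 (change 2.36, SE 0.0478). Against them stood CC1G_03940, named laccase without a number, which went from 11.47 and 11.54 to 7.88 and 8.06 (change -3.54, SE 0.0642). Of 6 copper radical oxidases, enzymes that release hydrogen peroxide, 4 fell and 2 rose, and the division into families was made after the values were seen. The largest fall was in CC1G_10353, from 11.67 and 11.61 to 7.05 and 6.95 (change -4.64, SE 0.0593, adjusted p = 6.42e-09).

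All 5 genes named as hydrophobins, small secreted proteins that coat aerial hyphae, fell. Their changes ran from -1.44 (hydrophobin-315, CC1G_09189) to -0.29 (CC1G_02182), the last a call lost in 5 alternative settings. The list took only products with hydrophobin in the name. Outside it were 4 genes named CoH1, of which 1 rose and 1 fell, each by at least 2-fold (median 0.23). Plant cell wall degradation, with 64 genes, had 34 lower and 23 higher, 19 and 10 beyond 2-fold, and a median of -0.36. Rhamnogalacturonase B (CC1G_05304), a pectin-degrading enzyme, led the falls among genes above the floor in both stages at -3.94, and a xylanase (CC1G_02536) led the rises at 2.49. All 6 genes named simply beta-glucosidase rose, by 0.11 to 1.50, and 8 of 10 cellobiohydrolases fell, both counts made after the values were seen. Under the name cellulose-binding beta-glucosidase, CC1G_08721 rose by 0.42 but CC1G_13671 changed by -0.90.

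Of 46 mating and pheromone genes 27 were higher and 17 lower, 20 and 12 of them by at least 2-fold (43.5% and 26.1%, against 12.3% and 14.8% of all genes). In this fungus the B mating type locus codes for lipopeptide pheromones and their receptors, through which compatible nuclei are recognised. Of 27 genes named fungal mating-type pheromone, 19 rose and 7 fell. CC1G_15337 read 6.52 and 6.46 on the young arrays, under the floor, and 11.53 and 11.45 on the mature ones, at least 31.3-fold higher. Its mean was at most 7.25 at any earlier stage. CC1G_08185 went from 9.08 and 9.09 to 11.51 on both mature arrays (change 2.43, SE 0.0247, adjusted p = 3.78e-09), below its mycelial mean of 12.87.

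A set of 8 pheromone genes, CC1G_08185 included, had nearly the same values, between 9.05 and 9.26 on the young arrays, 11.39 and 11.59 on the mature arrays and 12.51 and 12.96 on those of mycelium. They were picked as those within a root mean square of 0.3 log2 units of CC1G_14008 over the 10 arrays, after the values were seen. Probe sequences were not analysed here, so whether these genes share probe signal was not tested, and their 8 rises may not be separate measurements. Without them 12 of the other 38 members rose by at least 2-fold, and the list's median was 0.10 against 0.65 with them.

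The receptors went the other way. Of 6 pheromone receptors 5 fell, each by at least 2-fold, and 1 rose (CC1G_02129, 1.13). Rcb2 B43 (CC1G_15338) read 11.47 and 11.52 before and 8.17 and 8.36 after, a change of -3.23 (SE 0.0642, adjusted p = 2.73e-08). The B alpha 1 receptor (CC1G_02151) went from 13.78 and 13.76 to 11.65 and 11.59 (change -2.15). The pheromone Phb2.1 B43 (CC1G_02135) fell from 10.23 and 10.34 to under the floor, at least 11.5-fold lower, whereas Phb2.2 B43 (CC1G_02134) rose by 1.45. Of 5 genes for homeodomain or other mating-type proteins of the A locus kind, 4 fell and none by 2-fold. The HMG-box regulator pcc1 (CC1G_07392), which restrains mating-dependent development in this species, changed by -0.85, and ich1 (CC1G_08484), needed for the cap to form in primordia, by -0.47 (adjusted p = 9.74e-07 and 6.09e-06).

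Nearly all genes of the proteasome and the cytosolic ribosome were lower in the cap. Of 22 proteasome genes 21 were lower in the cap, 11 by at least 2-fold, with a median of -1.03 and quartiles of -1.17 and -0.87. Subunit beta type 3 (CC1G_13712), part of the barrel that degrades proteins, read 12.84 and 12.86 on the young arrays and 11.47 and 11.48 on the mature ones (change -1.38, SE 0.0273, adjusted p = 2.73e-08). The subunit RPN2a of the regulatory cap (CC1G_13628) changed by -1.23, and the smallest fall was -0.60, in a 20S subunit (CC1G_14614). The only rise was in a 26S subunit (CC1G_04975), by 0.09 (adjusted p = 0.0265), and that call was lost in several alternative settings. In the wider ubiquitin list, 38 of 74 genes fell and 19 rose, 8 and none of them beyond 2-fold, with a median of -0.09.

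Cytosolic ribosomal proteins fell in 72 of 79 genes and rose in 2, with 14 falls beyond 2-fold and a median of -0.75. L17 (CC1G_09927) changed most, from 13.85 and 13.87 to 12.41 and 12.30 (change -1.50, SE 0.0474, adjusted p = 1.84e-07). The 2 that rose were an S12 gene (CC1G_03461, 0.47) and an L19 gene (CC1G_01249, 0.21). Another S12 gene (CC1G_12427, -0.55) and another L19 gene (CC1G_04355, -1.02) fell. Mitochondrial ribosomal proteins had a median of -0.15, with 11 of 17 lower and 3 higher. Ribosome biogenesis genes fell in 26 of 42 and rose in 8 (median -0.25), and translation factors with tRNA synthetases fell in 43 of 75 and rose in 15 (median -0.17). Splicing factors were lower in 27 of 54 and higher in 16 (median -0.10). In each of these 4 lists at most 3 genes passed 2-fold in either direction.

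Respiratory genes leaned the other way by small amounts. In the list of respiration and the citric acid cycle, 39 of 67 genes were higher and 11 lower, but only 2 and 1 beyond 2-fold, with a median of 0.12. Of the 16 genes of the mitochondrial genome 14 rose and none fell, with a median of 0.55 and changes from 0.11 to 1.66, a grouping made after the values were seen. Most of these genes are also members of the list above, so the counts overlap. ATP synthase subunit 8 (CC1G_22015), part of the membrane sector of the enzyme, read 10.14 and 10.07 before and 11.82 and 11.71 after (change 1.66, SE 0.0894, adjusted p = 2.47e-06). Outside the mitochondrial genome, the ATP synthase genes named beta (CC1G_01082, -0.10), F1 (CC1G_09000, -0.25) and gamma (CC1G_09510, -0.22) were lower. The other such ATP synthase subunits of the list were not called, a comparison picked after the values were seen. A malate dehydrogenase (CC1G_07719) rose by 1.07, and the assembly factor Atp10 (CC1G_03574) changed by -1.30.

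**Figure D3:**
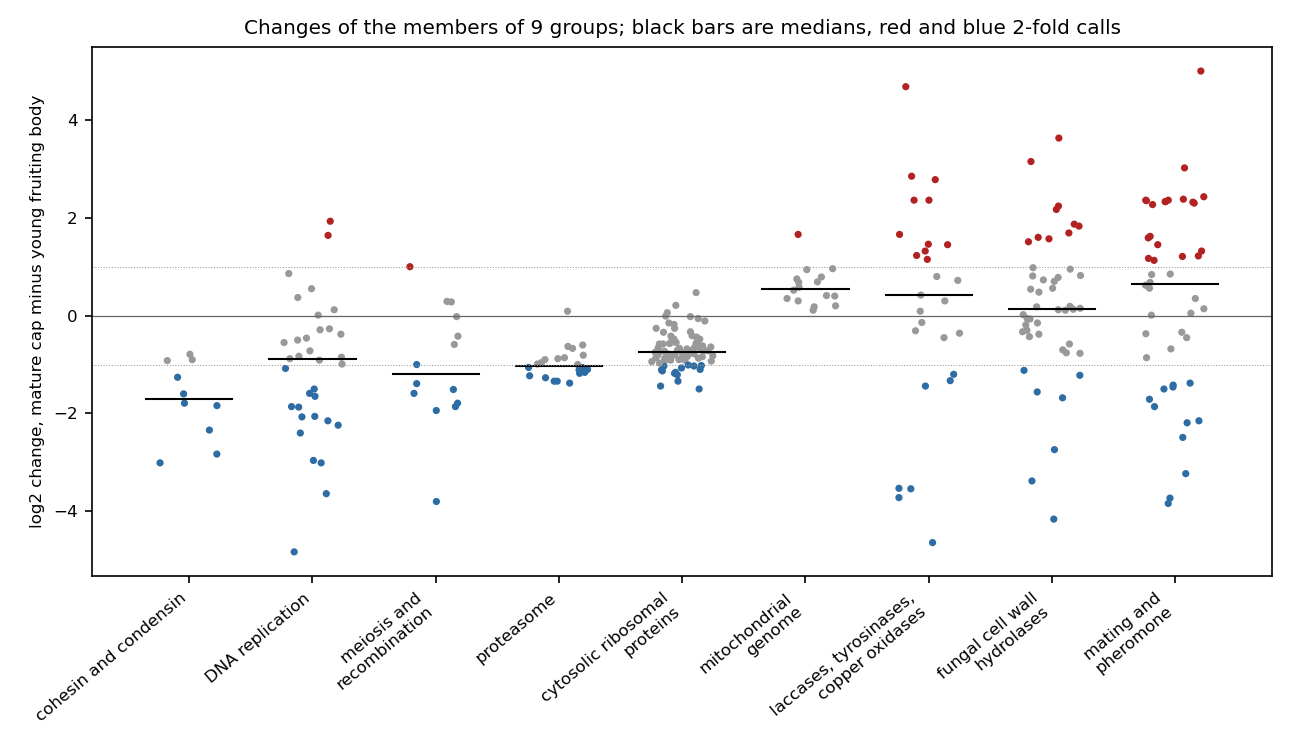
Change of each member (log2, mature cap minus young fruiting body) in 9 groups of genes; each point is a gene, red and blue mark calls of at least 2-fold and black bars are medians. Proteasome and ribosomal genes form narrow bands below 0, while copper oxidases, wall hydrolases and mating genes spread in both directions.

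In sugar metabolism, 13 of 27 genes of glycolysis, trehalose and glycogen were higher and 11 lower (median 0.04), 4 and 2 of them beyond 2-fold. A glyceraldehyde 3-phosphate dehydrogenase (CC1G_09117), a glycolytic enzyme, read 10.11 on both young arrays and 14.03 and 14.00 on the mature ones. It had risen from 8.44 on average in mycelium through each stage mean to the young fruiting body, and the last step was the largest (change 3.91, SE 0.0464, adjusted p = 5.27e-09). Another gene of that name (CC1G_09116) fell, from 13.91 and 13.88 to 13.16 and 13.20 (change -0.72). Phosphoglycerate mutase genes were split likewise, with CC1G_03153 up by 1.68 and CC1G_02768 at -0.85. Falls under 2-fold included glucose-6-phosphate isomerase (CC1G_15643, -0.96), enolase (CC1G_00616, -0.81) and triosephosphate isomerase (CC1G_07287, -0.70), all enzymes of glycolysis. Of other glycolytic enzymes, pyruvate kinase (CC1G_10283, 0.40) and 6-phosphofructokinase (CC1G_14425, 0.37) rose, and phosphoglycerate kinase (CC1G_05205, 0.04) was not called. A trehalase (CC1G_03407, 0.90) and mannitol-1-phosphate dehydrogenase (CC1G_07718, 1.78), an enzyme of the storage sugar alcohol mannitol, also rose. Trehalose phosphorylase (CC1G_03906), which splits the storage sugar trehalose, fell from 14.52 and 14.53 to 12.83 and 12.78 (change -1.72, SE 0.0279). Phosphoglucomutase 1 (CC1G_05188) changed by -1.02.

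Amino acid and urea metabolism was higher in 27 of 41 genes and lower in 12, 7 and 1 beyond 2-fold, with a median of 0.25. The NADP-specific glutamate dehydrogenase (CC1G_05483), which fixes ammonium and whose activity is a known feature of the cap of this species, read 12.73 and 12.65 before and 14.01 and 14.12 after. Both caps lay above all 8 other arrays (change 1.37, SE 0.0528, adjusted p = 4.66e-07). A kynurenine/alpha-aminoadipate aminotransferase (CC1G_15151) rose by 2.22 and proline dehydrogenase (CC1G_13194) by 1.55. L-amino acid oxidase (CC1G_02491), which releases ammonium and peroxide, was the only 2-fold fall, at -2.02. Sugar and other major facilitator transporters were higher in 23 of 45 and lower in 19 (8 and 3 beyond 2-fold), led by sugar transporter 1 (CC1G_08389) at 2.98. Ion pumps, channels and aquaporins were higher in 16 of 32 and lower in 13 (5 and 2 beyond 2-fold). Of the ammonium transporters, CC1G_01676 rose by 2.45 and CC1G_05914 ended under the floor. CC1G_05914 counts as a 2-fold fall by its fitted change, though it is only known to be at least 1.64-fold lower.

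Lipid genes gave some of the largest falls. In the list of 123 fatty acid and sterol genes 57 fell and 46 rose, 21 and 11 by at least 2-fold, with a median of -0.08. Phosphatidylserine decarboxylase makes phosphatidylethanolamine, a major membrane lipid, and 5 of its 6 genes were lower, 4 by at least 2-fold. CC1G_09208 read 13.72 and 13.71 on the young arrays and 7.27 and 6.86 on the mature ones. The stage means of initials, primordia and young fruiting bodies were 13.74, 13.84 and 13.71, and that of mycelium was 9.09, so the caps lay below all of them (change -6.65, SE 0.125, adjusted p = 2.27e-08). A fatty acid conjugase (CC1G_02589), of the family of enzymes that modify double bonds in acyl chains, went from 12.89 and 12.90 to 7.07 and 8.01, and its mature arrays differed from each other by nearly 1 log2 unit (change -5.35, SE 0.261, adjusted p = 1.47e-06). Its neighbour, a delta 12 fatty acid epoxygenase (CC1G_02590), ended under the floor, at least 26.8-fold lower. A carotenoid ester lipase (CC1G_00636) rose from 8.61 and 8.66 to 13.45 on both mature arrays (change 4.81, SE 0.0773). All 5 genes named acyl-CoA dehydrogenase, enzymes of fatty acid oxidation, rose, by 0.80 to 1.21, and so did all 4 named triacylglycerol lipase, by 0.35 to 2.12. Both counts were made after the values were seen.

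Among the remaining largest rises of named genes, a protein with a G-X-X-X-Q-X-W domain (CC1G_02597), a repeat of carbohydrate-binding proteins, read 8.03 and 8.04 on the young arrays and 14.26 and 14.29 on the mature ones. That was the largest rise of any named gene (change 6.24, SE 0.0605, adjusted p = 3.73e-09), or 75.5-fold. The mannoprotein MP88 (CC1G_07946), named after a surface antigen of Cryptococcus, went from 7.69 and 7.83 to 13.50 and 13.45 (change 5.71, SE 0.0472). A protein with a hemerythrin domain (CC1G_13754), a fold that binds iron, went from 8.18 and 8.22 to 13.69 and 13.57 (change 5.43, SE 0.0995). These 3 genes were at most 9.51 on average at any earlier stage. A 1,4-benzoquinone reductase (CC1G_11359), an enzyme known from lignin breakdown in other fungi, rose by 5.24, an alginate lyase (CC1G_06067) by 5.03 and the protease precursor pepsinogen A (CC1G_11543) by 4.72.

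Redox and stress genes were mixed. Alcohol dehydrogenases and other oxidoreductases were higher in 49 of 90 and lower in 31, with 28 (31.1%) and 14 (15.6%) beyond 2-fold against the background of 12.3% and 14.8%. A short-chain dehydrogenase (CC1G_02706) rose most, from 7.37 and 7.42 to 12.35 and 12.36 (change 4.96, SE 0.0309, adjusted p = 1.6e-09). Cytochrome P450 genes, monooxygenases of secondary metabolism and detoxification, were split nearly evenly, 36 higher and 37 lower of 90, with 18 and 21 beyond 2-fold. CC1G_09431, a P450, rose from 6.79 and 6.91 to 11.44 and 11.02, still below its mycelial mean of 13.38. Antioxidant enzymes, with 18 higher and 17 lower of 39 (10 and 4 beyond 2-fold), included a catalase (CC1G_11919) that rose from 9.72 and 9.79 to 12.83 and 12.41. A heat-induced catalase (CC1G_09926) fell from 12.81 and 12.77 to 10.87 and 10.70, so enzymes that break down peroxide moved apart. A 2-Cys peroxiredoxin (CC1G_04730), another peroxide-reducing enzyme, fell from 13.30 and 13.38 to 10.06 and 9.91 (change -3.35, SE 0.0768). Chaperones were lower in 28 of 51 and higher in 18 (median -0.17), yet a small heat shock protein (CC1G_05868), of a family that keeps unfolded proteins soluble, rose from 8.79 and 8.83 to 13.72 and 13.65 (change 4.87, SE 0.117). Peptidases were lower in 61 of 112 and higher in 30 (17 and 6 beyond 2-fold), and 17 of the 61 that fell were metalloproteases, of which 26 were measured and 4 rose.

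Signalling genes showed no common direction. FunK1 kinases, a family expanded in mushroom-forming fungi, were higher in 42 and lower in 52 of 127 (median 0.00), and 32 were under the floor in both stages. CC1G_07435 of that family rose by 3.56, and CC1G_10359 ended under the floor, at least 13.6-fold lower. Kinases of the AgaK1, TKL-ccin and PKL groups were higher in 17 and lower in 32 of 65 (median -0.20), and conserved kinases higher in 59 and lower in 58 of 149 (median 0.06). Among conserved kinases an AGC1 kinase (CC1G_08690) changed by -4.73, from 11.62 on both young arrays to 6.61 and 7.18. Small GTPases and G proteins were higher in 23 and lower in 28 of 72 (median -0.01), with the TOR activator rheb (CC1G_00269) at -1.72 and a Rho1 gene (CC1G_03163), whose product steers wall synthesis in yeasts, at 2.04. Transcription factors were higher in 14 and lower in 16 of 41 (median 0.01), with 1 and 4 beyond 2-fold. The 7 autophagy genes changed by -0.52 to 0.57, 4 upward and 3 downward. Of the light-sensing genes, photolyase (CC1G_14649) rose by 0.40, and photoreceptor A (CC1G_08609) changed by 0.08 (adjusted p = 0.0396), a call lost in 10 alternative settings.

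**Figure D4:**
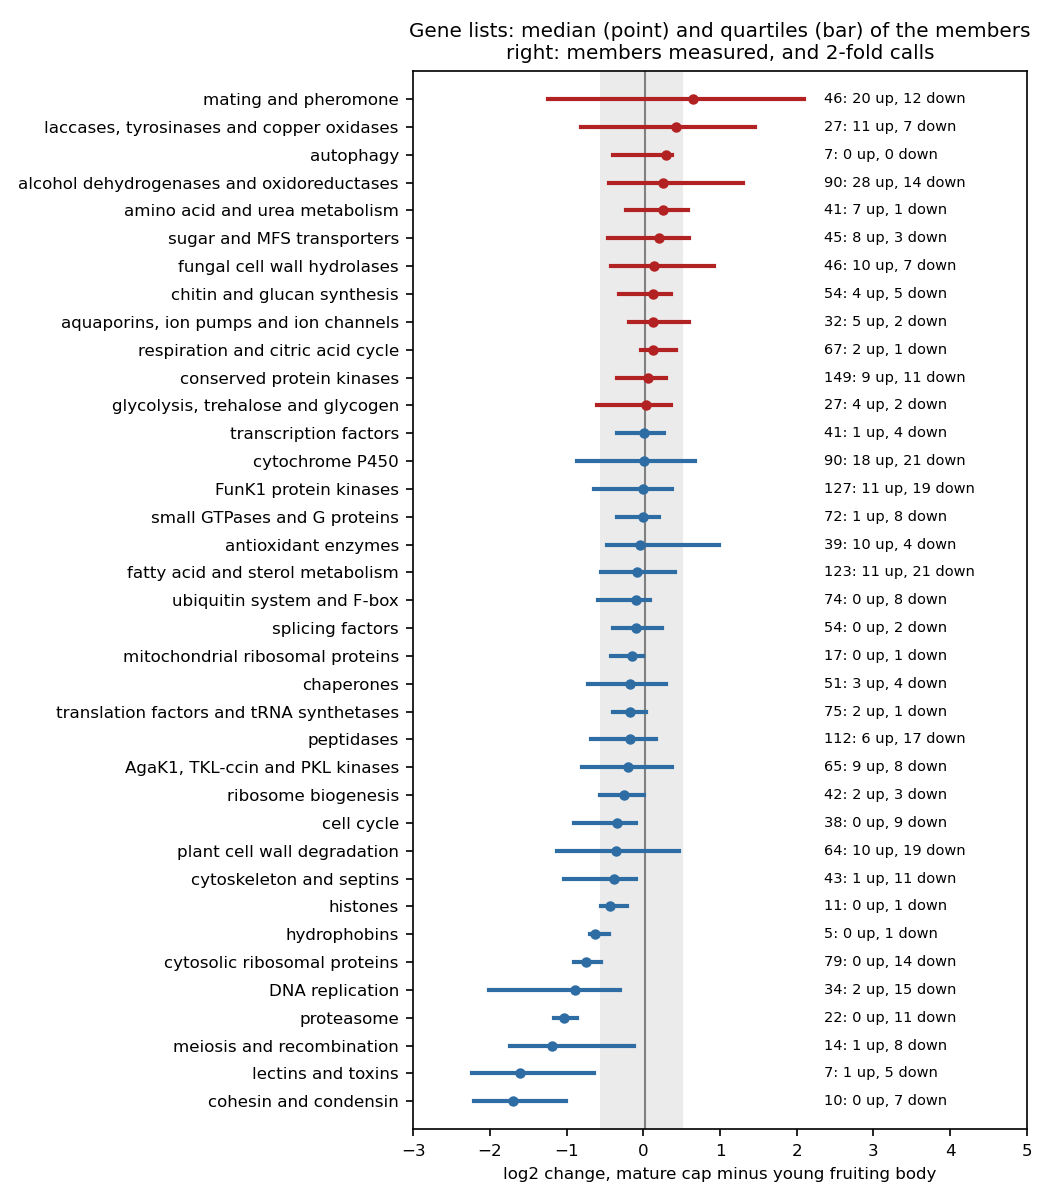
Median (point) and quartiles (bar) of the log2 change of the members of 37 gene lists with at least 5 measured genes; the grey band and line are the quartiles and the median of all 13320 genes, red and blue mark medians above and below that line, and the numbers give members measured and 2-fold calls. Cohesin and condensin, lectins and toxins, meiosis, proteasome, replication, ribosomal proteins and hydrophobins have medians below the lower quartile of all genes.

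Genes with no named product were 8992 of the 13320 measured, and so made up most of the 2-fold calls. Of these, 1247 (13.9%) rose and 1402 (15.6%) fell by at least 2-fold, near the 12.3% and 14.8% of all genes. Among the 4328 named genes the counts were 392 (9.06%) and 573 (13.2%). CC1G_10253, a hypothetical protein, read 5.33 and 5.42 on the young arrays and 13.68 and 13.57 on the mature ones, at least 138-fold higher. It was under the floor at all 4 earlier stages, and 79 of the 1639 2-fold rises shared that pattern. CC1G_05600, a predicted protein, was the counterpart: 12.82 on both young arrays, 4.51 and 4.85 on the mature ones, at least 66.5-fold lower. Its level had climbed from 6.20 in mycelium to 11.65 in initials. CC1G_03184 rose from 8.36 and 8.43 to 14.94 and 14.90, and CC1G_13884 ended under the floor, at least 14.5-fold lower.

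Set against all stages, most of the 2-fold changes took the cap outside the range of the other 8 arrays. Of the 1639 rises, 1278 (78.0%) had both mature arrays above all 8 others. All 1639 lay above the young arrays by their selection, and of the 5983 genes that did so 3728 (62.3%) showed the pattern. Of the 1975 falls, 1570 (79.5%) had both below all 8 others, and so did 3752 (63.5%) of the 5907 genes below both young arrays. In 286 rises (17.4%) both mycelium arrays were at least as high as the cap, as in the P450 and pheromone genes above, and in 260 falls (13.2%) both were at least as low, as in Spo11. A further count of 158 falls ended under the floor in genes that were above it on all 8 earlier arrays. Successive steps share arrays, so their counts are given side by side only. By at least 2-fold, 1200 genes rose and 1451 fell from mycelium to initials, 297 and 229 from initials to primordium, 344 and 265 from primordium to young fruiting body, and 1639 and 1975 from young fruiting body to cap.

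Neighbouring genes sometimes lay in runs with the same call. In the gene order of the RefSeq annotation, 21 runs of at least 4 adjacent genes (91 genes) were all 2-fold higher and 27 runs (119 genes) all 2-fold lower, the longest being 6 genes in each direction. Nothing was compared with chance here. A run of 5 at the B mating type genes held Phb2.1 B43, the receptors Rcb2 B43, B beta 1 and Rcb3 B43 and a pheromone. Phb2.1 B43 was at least 11.5-fold lower, as above, and the other 4 had changes of -3.23, -2.19, -1.46 and -1.86. In another run 3 phosphatidylserine decarboxylases (CC1G_09240, CC1G_09238 and CC1G_09237), the first and second with changes of -2.98 and -3.66, lay beside 2 unnamed genes that also fell. Spo11 and Cdc6B closed the ends of a run of 4 falls, and the condensin gene cnd2 lay next to the basidiospore development protein in another. Among the rises, a run of 6 held a nucleoside-diphosphate-sugar epimerase (CC1G_09092, 3.21), an ergot alkaloid biosynthetic protein A (CC1G_09093, 2.23) and an aryl-alcohol dehydrogenase (CC1G_09094, 1.84). A run of 5 held a sphingomyelin phosphodiesterase (CC1G_07717, 3.33) next to the mannitol-1-phosphate and malate dehydrogenases named above. Signal shared between close paralogs in a run, such as the decarboxylases, was not tested.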

How the data were processed

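From single-colour NimbleGen arrays the authors made a linear intensity for each gene in each probe block, by the robust multi-array average according to the names of the deposited files. Each rests on 5 probes (fewer for 31 genes), per the file headers. Which software and settings were used is not given in the sources used here. Gene products are those of the array design, retrieved from the Broad Institute per the file headers, and can be old.

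The log2 values of the 2 blocks of the deposited intensity were averaged per array, with no pseudocount, filter or further normalization. A single model of stage over all 10 arrays was fitted in limma 3.58.1 (R 4.3.3; lmFit and eBayes, 5 residual degrees of freedom), two-sided, with Benjamini-Hochberg adjustment over 13320 genes at 0.05. The number of arrays limits the precision. The floor was 4 times the random-sequence control of each array. Folds against a stage under it are bounds, from the brighter stage's mean log2 value against the floor of each dim array, or its own value where that is higher. Genes dim in both stages get no fold. The 2-fold counts use the fitted change, so they include some such genes and some whose bound is under 2-fold. Groups came from the titles. Gene order came from RefSeq (assembly CC3, 13318 genes matched by locus tag), used only for neighbours.

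The 40 gene lists are patterns on product names and may take in unrelated members, such as a polyketide synthase among the copper oxidases. No set test was run: lists are described by counts and medians beside those of all genes. Named genes were the 12 largest rises and falls with a named product and the 4 without, and up to 3 of each direction per list, among genes called, at least 2-fold, with separate arrays and above the floor in a stage. Galectins, members of small lists and markers were named in any case. Not every gene so chosen is reported here, but all stay in the counts and medians of lists. Genes outside the rule were chosen after their values were seen: members of the replication, cell cycle, recombination, glycolysis, proteasome, ribosomal and mating lists, subfamilies, families sharing a product name, and runs. Members, lists, floor and rule were chosen with earlier results of these data known. The fit was tested on simulated data. Alternatives were other scalings, filters, blocks, weights, subsets of arrays and left-out replicates. Figures were drawn with matplotlib 3.10.9.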

Additional observations from a re-analysis of the deposited data

How the results depend on the processing

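Over 16 alternative settings, genes higher in the cap numbered 4060 to 5486 against 5095 and genes lower 4711 to 5503 against 5422. The 2-fold rises numbered 1106 to 1758 against 1639 and the 2-fold falls 1514 to 1996 against 1975. The lowest of these 2-fold counts came without the dimmest genes, when 9990 genes were tested. Leaving out 1 array in turn gave 4693 to 4923 genes higher and 5120 to 5373 lower, with 1639 to 1674 and 1957 to 1996 at 2-fold. No gene called at 2-fold changed sign in any setting run. Median centring moved the median of all genes from 0.024 to 0.074, and calls higher from 48.4% to 51.8% of all calls. Of the 224 genes that the naming rule takes, 222 were called. Over these genes and settings the call was kept 3497 times, lost 23 times and gained 6 times, with no reversal. Genes named outside the rule, such as the proteasome rise below, are not in this tally. The calls lost were of photoreceptor A, CC1G_02182, Msh5 and genes with changes under 0.6.

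Among lists, the mating median was 0.65 and ranged down to 0.10 without the dimmest genes, where laccases, tyrosinases and copper oxidases had 9 members higher in place of 16. The plant cell wall median of -0.36 was -0.22 or -0.46 without one or the other mature array. The glycolysis, antioxidant and small GTPase medians lay near 0 and took either sign or 0 with another scaling. The only proteasome rise was lost in 7 settings. In a setting chosen after the data were seen, genes under the floor in 1 stage were put at their bound. Those under it in both, or with a bound under 1-fold, were put at 0. The median of plant cell wall degradation was then -0.19 in place of -0.36. That of the spore list, mostly WSC domain genes, was 0.01 in place of 0.15. That of the AgaK1, TKL-ccin and PKL kinases was 0.00 in place of -0.20. No other list median moved by more than 0.06.

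The replicate numbers were not used as pairs, since not every pair of stages had a correlation over 0.1: the correlation of replicate differences between stages ran from -0.024 to 0.503, with 8 of 10 pairs of stages over 0.1, and was -0.024 between young and mature. A fit with the replicate number as a block called 5165 genes higher and 5433 lower, 1640 and 1976 at 2-fold.

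Tissue, stage and slide position changed together, a change of total RNA per cell was not measured, and genes near the controls have bounds only.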
